A study of Mus musculus with 2 samples.

Results

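The let-7 family and miR-98 were followed in small RNA of whole hearts from wild-type (WT) C57BL/6 mouse embryos at embryonic day 9.5 (E9.5). Members were all entries that carry the name let-7 with a letter, or miR-98, in the miRDeep2 tables, which give raw read counts for each known precursor (an entry). There were 17 such entries among 620 in all, and 15 of the 17 were listed in both replicates. The 17 entries held 11 different mature sequences, 11 in replicate 1 and 9 in replicate 2. The miRNA libraries form 1 group of 2 replicates of untreated WT hearts, so they give levels and their spread and no comparison of conditions. The labels do not state whether the replicates come from separate pools of embryos, so the spread between them may be technical.

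Let-7 was found as a timing gene in worms, and its mature form is kept with little change across animals. In mammals several genes make nearly identical let-7 miRNAs, which act on targets such as Lin28a, Hmga2 and Ras genes through the seed, the stretch near the 5′ end that pairs with the target. The RNA-binding protein LIN28 holds let-7 precursors back from processing in early embryonic cells by binding their loop, where it contacts the letters GGAG, and mature let-7 generally accumulates as cells differentiate. MiR-98 has the same seed and is usually counted with the family.

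The mature sequences are shown because all results on the family depend on how far they can be told apart. They are the sequences of the deposited tables, 5′ to 3′, with bases 2 to 8 (the seed) in capitals, ordered by mean share of reads:
let-7i: uGAGGUAGuaguuugugcugu
let-7f: uGAGGUAGuagauuguauagu
let-7c: uGAGGUAGuagguuguauggu
let-7g: uGAGGUAGuaguuuguacagu
let-7a: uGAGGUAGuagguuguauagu
let-7e: uGAGGUAGgagguuguauagu
let-7b: uGAGGUAGuagguuguguggu
let-7d: aGAGGUAGuagguugcauagu
miR-98: uGAGGUAGuaaguuguauugu
let-7j: uGAGGUAUuaguuugugcuguua
let-7k: uGAGGUAGgagguugugugc

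The 9 members listed in both replicates were 21 bases long and shared 13 of 21 positions, the whole seed among them. Over their 36 pairs they differed at 1 to 6 positions, and 4 pairs differed at a single base. Counted from 1 at the 5′ end of let-7a, let-7c differs by A19G, let-7e by U9G and let-7f by G12A, and let-7b differs from let-7c by A17G. Reads with 1 wrong base could move between these pairs, and the mismatches allowed in mapping are not given in the sources used here. Let-7i, the member with the most reads, differs from let-7a by G12U, A17G, U18C and A19U. Each of the 9 listed sequences started at the same base as its RefSeq counterpart (GRCm38.p6) and lacked the final u. Among 383 sequences of other names matched to RefSeq, 96 (25.1%) were 1 base shorter with the same start, and 160 (41.8%) had the same start and length.

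Each distinct mature sequence was counted once, by its highest entry, because the tables list the same reads again at every entry with that sequence. Counted this way, the replicates held 3619523 and 3499739 mature reads, 26.8% and 27.2% fewer than the sums over entries. A share below is the percent of these reads, and a share of 3 reads, 8.29e-05% in replicate 1 and 8.57e-05% in replicate 2, was taken as the floor of detection. The 95% Wilson intervals and the floor cover counting error only, since reads without molecular identifiers are not independent molecules. How evenly the library steps capture different sequences was not tested, so an order of shares is an order of reads.

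The family and miR-98 made up 0.670% ± 0.054 of mature reads (SD, n = 2). They held 22861 reads in replicate 1, a share of 0.632% (interval 0.623% to 0.640%), and 24783 reads in replicate 2, a share of 0.708% (interval 0.699% to 0.717%). The intervals did not overlap, so the replicates were further apart than counting error. In RNA of a whole organ, a low share cannot be told apart from a higher level in a small part of the cells.

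Let-7i was the highest member, with 5773 reads in replicate 1 and 5374 in replicate 2 (0.157% ± 0.0042 of mature reads; SD, n = 2). It ranked 65 and 69 among the mature sequences of the replicates. Let-7f had 3930 and 4465 reads (0.118% ± 0.013), and let-7c had 3864 and 4441 (0.117% ± 0.014). Let-7i was above both in each replicate, and the ranges of let-7f and let-7c overlapped. Let-7g followed with 3291 and 3264 reads (0.0921% ± 0.0017), below let-7c in each replicate. Let-7a, the form after which the others are usually aligned, had 2631 and 3328 reads (0.0839% ± 0.016), a range that overlapped with that of let-7g. Let-7e had 1988 and 2284 reads (0.0601% ± 0.0073), less than let-7a in each replicate. These 6 members lay within a 2.60-fold range of mean share. The 4 highest held 73.7% and 70.8% of the family's reads.

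The remaining members were scarcer. Let-7b had 600 and 776 reads (0.0194% ± 0.0040), 3.10 times less than let-7e by mean share. Let-7d had 553 and 726 reads (0.0180% ± 0.0039) and overlapped with let-7b. MiR-98 had 85 and 125 reads (0.00296% ± 0.00087), 6.08 times less than let-7d, with no overlap. Neighbours were taken as apart where both replicates of one lay above both replicates of the other. Of the 8 neighbouring pairs in the order from let-7i to miR-98, 5 were apart (let-7i and let-7f, let-7c and let-7g, let-7a and let-7e, let-7e and let-7b, let-7d and miR-98), and 3 overlapped. Of the pairs that overlapped, let-7g and let-7a changed order between the replicates. Let-7f was above let-7c, and let-7b above let-7d, within each replicate, with overlapping Wilson intervals.

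Let-7j and let-7k were listed in replicate 1 only and have no value in replicate 2. Let-7j, at chr3:139691245-139691310 (mm9, plus strand), had 144 reads, more than miR-98 in that replicate, and 0 reads on the opposite arm, which allows a share of up to 2.08% there by the floor of 3 reads (Wilson upper bound 2.60%). Its sequence differs from let-7i by G8U within the bases compared, so it lacks the family seed. MiRDeep2 scores a hairpin by the log-odds that its reads come from a true miRNA precursor, and the score of let-7j was -13. Let-7k, at chr5:148094832-148094871 (minus strand), had 2 reads, below the floor, and a score of -10. Without both, the family share was 0.668% ± 0.057 (SD, n = 2).

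**Figure D1:**
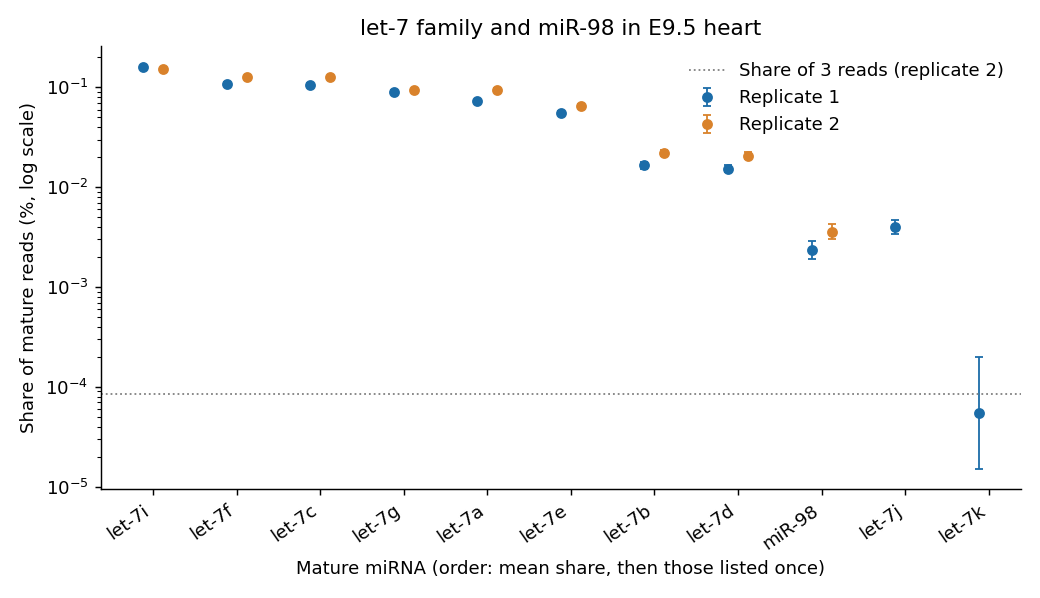
Share of mature reads (percent, log axis) of each let-7 family member and miR-98 in each replicate, with each mature sequence counted once. Bars are 95% Wilson intervals and the dotted line is the share of 3 reads in replicate 2. Let-7i is highest in both replicates, miR-98 is lowest of the 9 members listed in both, and let-7k lies below the line.

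Several genomic copies shared a mature sequence, so the tables cannot assign those reads to a locus. A search of the whole mm9 assembly (NCBIM37) found 2 exact copies each of the let-7a, let-7c and let-7f sequences and 1 copy of every other member. The copies of let-7a are let-7a-1 (chr13:48633558-48633629, minus strand) and let-7a-2 (chr9:41344815-41344881, plus strand), listed with 2630 and 2631 reads in replicate 1 and with 3328 and 3327 in replicate 2. Let-7f-1 (chr13:48633203-48633279, minus strand) and let-7f-2 (chrX:148346896-148346966, plus strand) were listed with 3930 and 3929 reads in replicate 1 and with 4465 and 4447 in replicate 2. Let-7c-1 (chr16:77599917-77599983, plus strand) and let-7c-2 (chr15:85537001-85537066, plus strand) had 3864 and 3849 reads in replicate 1 and 4441 and 4424 in replicate 2. The counts of the copies differed by at most 18 reads in each replicate, so a read with one of these sequences counts at both places.

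Single loci also appeared under overlapping entries. Let-7a-1, let-7a-2 and let-7e each had a second entry in which the mature sequence lay at the 3′ end of a fold that reaches upstream of the hairpin. These had the same mature reads and scores of -4.6, -6.4 and -2.2 in both replicates. Let-7c-2 was listed only as such a fold, with a score of -2.7. The let-7a-2 hairpin itself scored 1300 in replicate 1 and 2.1 in replicate 2, with 2 and 0 reads on its opposite arm.

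These repeats decided the order of the members. With every entry counted, let-7a rose to 0.245% ± 0.045 of mature reads over 4 entries and became the highest member, while let-7i fell to 0.114% ± 0.0035 (SD, n = 2 for each). Let-7f and let-7c, with 2 entries each, moved to 0.172% ± 0.019 and 0.170% ± 0.020. The family share rose to 0.888% ± 0.096.

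**Figure D2:**
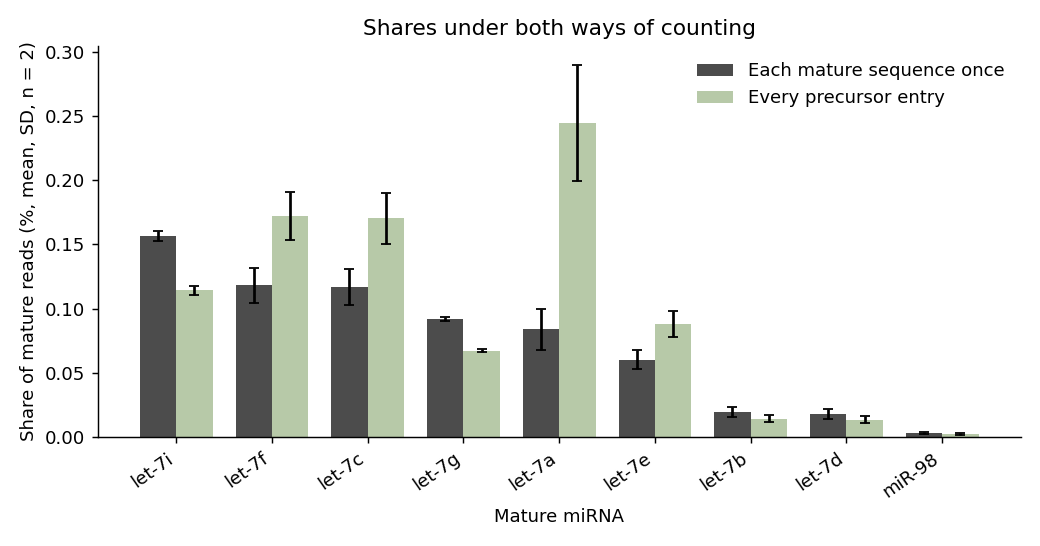
Mean share of mature reads (percent, linear axis from 0) of the 9 members listed in both replicates, with each mature sequence counted once (dark bars) and with every precursor entry counted (light bars). Error bars are the SD of 2 replicates. Let-7i is highest in the dark bars and let-7a, with 4 entries, in the light bars.

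All 9 members listed in both replicates share the seed GAGGUAG, and no entry of another name held it at bases 2 to 8 (16 entries with the seed in replicate 1 and 15 in replicate 2). Reads with this seed made up 0.628% of mature reads in replicate 1 and 0.708% in replicate 2. The let-7 seed ranked 27 of 391 seed families in replicate 1 and 25 of 362 in replicate 2. By mean share it had rank 27, between 0.675% for the seed of miR-411-5p and 0.639% for that of miR-532-5p. The seed of the heart muscle miRNA miR-1a-3p held 14.0% ± 0.55, and that of miR-143-3p, a smooth muscle miRNA, held 9.25% ± 1.0 (SD, n = 2 for each).

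**Figure D3:**
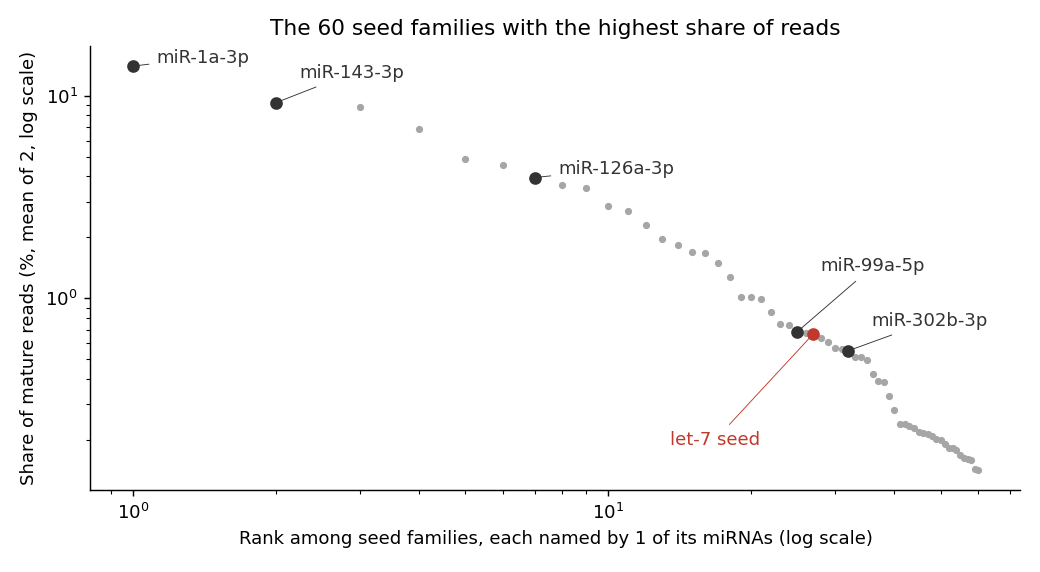
Mean share of mature reads (percent, log axis) of the most abundant seed families against their rank (log axis), each family named by 1 of its miRNAs. The let-7 seed (red) has rank 27, below the family of miR-99a-5p at rank 25 and above that of miR-302b-3p at rank 32.

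The members lay at 8 places with let-7 hairpins of positive score, and some were clustered with miRNAs of other families. Precursors on 1 strand with gaps of at most 10 kb were taken as a cluster. On chromosome 13, let-7d (chr13:48631394-48631468), let-7f-1 and let-7a-1 lay together on the minus strand within 48631394 to 48633676. On chromosome 15, let-7c-2 and let-7b (chr15:85537755-85537829, plus strand) formed a pair. On the X chromosome, let-7f-2 and miR-98 (chrX:148347772-148347851, plus strand) both lay in an intron of Huwe1, which codes for a ubiquitin ligase. Let-7g (chr9:106081177-106081254, plus strand) lay alone in an intron of Wdr82 on the same strand. Let-7i (chr10:122422698-122422775, minus strand) lay alone, with no host gene other than its own miRNA gene in GENCODE vM1.

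The other 3 clusters pair a let-7 gene with a relative of miR-100 or miR-125, an arrangement kept in many animals. Let-7c-1 lay beside miR-99a, opposite an intron of Gm11146. Let-7a-2 lay beside miR-100 in an intron of the long noncoding RNA D230004N17Rik. Let-7e (chr17:17967330-17967396, plus strand) lay beside miR-125a. MiR-99a-5p had 20212 and 20573 reads (0.573% ± 0.021), against 3864 and 4441 of let-7c. MiR-100-5p had 4076 and 3932 reads (0.112% ± 0.00018), against 2631 and 3328 of let-7a. MiR-125a-5p had 2851 and 3444 reads (0.0886% ± 0.014), against 1988 and 2284 of let-7e. All 3 partners were above their let-7 neighbour in each replicate. Let-7c and let-7a also have copies at places without such a partner, so the part of their reads that comes from these clusters cannot be told apart. Let-7a, let-7c and let-7e together held 37.1% and 40.6% of the family's reads. The list of partners, miR-99a, miR-99b, miR-100, miR-125a and miR-125b, had 4 of 5 members listed (miR-99b was not) and summed to 0.831% ± 0.037 of mature reads (SD, n = 2), above the family in each replicate.

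The loop between the arms of the hairpin was searched for GGAG, the letters that LIN28 contacts. Precursor sequences of the tables were searched on their own strand only, since the hairpin is single-stranded RNA. The 11 entries of the family with positive scores in both replicates were used, which leaves out the 4 upstream folds, let-7j and let-7k. GGAG stood between the arms in 9 of these 11 hairpins (81.8%) and in 25 of 357 entries of other names with positive scores in both replicates (7.0%), or 41 of 603 without regard to score (6.80%). The loops of the family were longer, at a median of 33 bases against 16, which gives more room for a match. Both hairpins without the letters belonged to scarce members, let-7b and miR-98. The RefSeq hairpin of let-7c-2, of which the tables list no usual hairpin, did not hold the letters between its arms either. Let-7a-1, let-7d, let-7b and miR-98 are shown to compare hairpins with and without the letters, with GGAG between the arms in capitals:
let-7a-1: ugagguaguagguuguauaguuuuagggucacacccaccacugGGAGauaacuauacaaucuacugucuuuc
let-7d: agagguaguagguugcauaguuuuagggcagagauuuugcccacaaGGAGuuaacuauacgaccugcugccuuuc
let-7b: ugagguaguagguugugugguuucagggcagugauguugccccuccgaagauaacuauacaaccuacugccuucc
miR-98: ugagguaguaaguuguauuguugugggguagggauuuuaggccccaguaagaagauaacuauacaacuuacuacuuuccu

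A match describes the letters and does not show binding, and a missing match does not show that binding is absent. The level of the LIN28 proteins was not measured in these libraries. Let-7d, which overlapped with let-7b in level, has the letters. Of the 6 most abundant members, let-7c holds them at let-7c-1 and not in the RefSeq hairpin of let-7c-2, and its reads cannot be assigned to a copy. The 11 hairpins had 0 reads on the loop in both replicates, except let-7f-2 with 2 reads in replicate 1.

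The arm opposite the mature miRNA (the star arm in miRDeep2) held few reads. Summed over the family, 334 and 357 reads lay on this arm in replicates 1 and 2, or 1.44% and 1.42% of the reads on both arms. The opposite arms are listed because they differ where the mature copies do not, with bases 2 to 8 in capitals:
let-7a-1-3p: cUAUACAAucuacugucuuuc
let-7a-2-3p: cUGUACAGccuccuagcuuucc
let-7f-1-3p: cUAUACAAucuauugccuucc
let-7f-2-3p: cUAUACAGucuacugucuuuc
let-7c-1-3p: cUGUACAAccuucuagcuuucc
let-7d-3p: cUAUACGAccugcugccuuuc
let-7e-3p: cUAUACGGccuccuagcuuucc
let-7i-3p: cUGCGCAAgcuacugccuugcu
let-7g-3p: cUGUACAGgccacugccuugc

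Let-7d had the highest share on its opposite arm among members with over 100 reads in each replicate. It had 97 opposite-arm reads beside 553 mature reads in replicate 1 (14.9%, interval 12.4% to 17.9%) and 109 beside 726 in replicate 2 (13.1%, interval 10.9% to 15.5%). Let-7e followed with 85 and 79 reads, 4.10% (interval 3.33% to 5.04%) and 3.34% (interval 2.69% to 4.15%), and its intervals did not reach those of let-7d. MiR-98 had 5 and 4 such reads, too few for a firm share (intervals 2.40% to 12.4% and 1.21% to 7.70%). The most abundant member had almost none, with 2 and 3 reads for let-7i (0.0346% and 0.0558%). Let-7g had 1 and 3 reads, listed from a base later than the RefSeq let-7g-3p starts.

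The copies differed on this arm. Let-7a-1 had 68 and 71 opposite-arm reads, against 2 and 0 at let-7a-2, where 0 of 3327 reads allows a share of up to 0.0902% by the floor of 3 reads (Wilson upper bound 0.115%). In RefSeq, let-7a-1-3p and let-7c-2-3p have the same sequence, so the reads at let-7a-1 may include those of let-7c-2. Let-7f-1 had 6 and 6 reads and let-7f-2 had 10 and 16, with overlapping intervals (0.0699% to 0.332% and 0.138% to 0.467% in replicate 1). Let-7c-1 had 52 and 61 reads, 1.33% and 1.35% of both arms. The mature reads under these shares are common to the copies, so each is a share of all let-7a, let-7c or let-7f reads and not of those made at the locus.

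The opposite arms as listed fall into 7 seeds, in contrast to the single seed of the mature arms. The seed UAUACAA was shared by let-7a-1, let-7f-1, let-7b and miR-98, with 85 and 86 reads in sum. The let-7d seed UAUACGA had 97 and 109 reads, and the let-7e seed UAUACGG had 85 and 79. UGUACAG was shared by let-7a-2 and let-7g, with 3 reads in each replicate. Over the 10 let-7 hairpins with positive scores and at least 100 mature reads, the median opposite-arm share was 0.561%, against 1.56% in 256 entries of other names chosen the same way. It lay under 1% in 6 of the 10 and in 43.0% of the 256. Among the 6 are let-7a-2, let-7f-1 and let-7f-2, whose mature reads are common to copies, which can lower their shares. Copies of other names were not set apart either. Summed over the family with each mature sequence counted once, the opposite-arm share was 1.44% in replicate 1 and 1.42% in replicate 2.

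**Figure D4:**
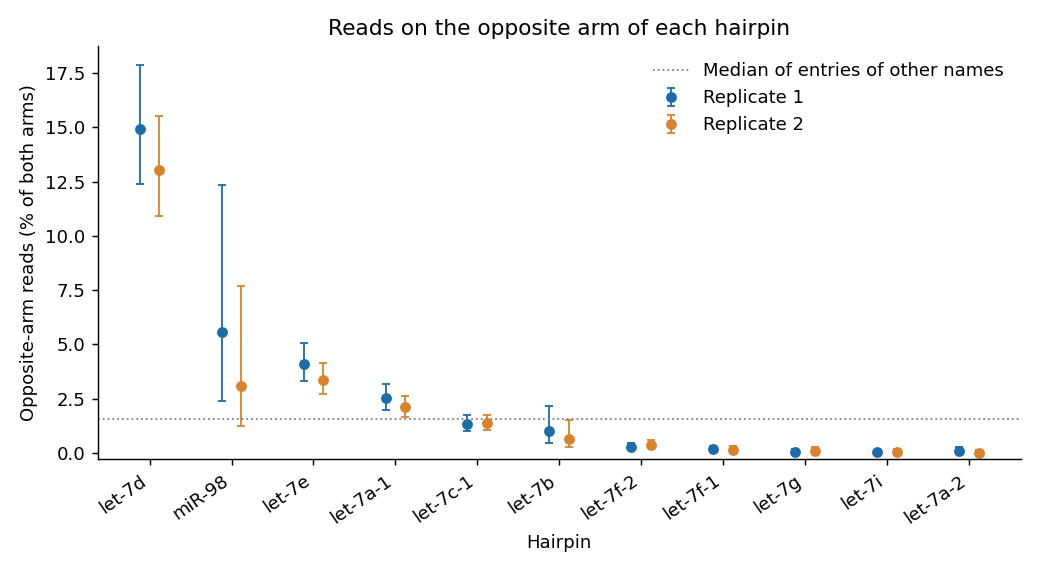
Reads on the opposite arm as percent of the reads on both arms (linear axis) for each let-7 and miR-98 hairpin and replicate, with 95% Wilson intervals. The dotted line is the median of entries of other names (1.56%). Let-7d lies at 14.9% and 13.1%, above all other hairpins of the family.

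The replicates were compared with each other to learn how precise the levels are. Entries present in each replicate that summed to 20 mature reads or more were tested by the exact two-sided binomial test against the library totals, with Benjamini-Hochberg adjustment over 431 entries. At an adjusted p of 0.05, 13 of 15 entries of the family differed, against 41.1% of all entries (177 of 431). All 13 had the higher share in replicate 2, against 27.6% of all entries. With each mature sequence tested once, 7 of 9 members differed, against 40.5% of all sequences, and the 7 were higher in replicate 2, against 29.0% of all sequences. The members are deeply read and share sequences, and entries with many reads are more readily called. When each replicate had to reach 100 mature reads, 174 of 305 entries were called in all, and 13 of 14 in the family. The background for deeply read entries is thus higher than 41.1%.

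The log2 ratio of replicate 2 over replicate 1, with each sequence counted once, was 0.39 for let-7a (adjusted p = 4.8e-24, exact binomial test). It was 0.25 for let-7c, 0.25 for let-7e and 0.23 for let-7f. Among the scarce members it was 0.42 for let-7b, 0.44 for let-7d and 0.60 for miR-98 (adjusted p = 0.0087, exact binomial test). Let-7g and let-7i did not pass, at 0.04 (adjusted p = 0.46, exact binomial test) and -0.05 (adjusted p = 0.10, exact binomial test). The median over the 9 members was 0.25, and over the 328 sequences tested it was 0.08. Let-7g and let-7i are thus the members whose levels were closest between the replicates.

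The split of the calls between the replicates depends on the scaling. Of all 177 calls 67.2% were higher in replicate 2 with library totals, 46.4% of 179 with the trimmed mean of M-values (TMM) and 43.6% of 179 with DESeq2's size factors. In the family, 13 entries were called higher in replicate 2 under each scaling, let-7i moved from a log2 ratio of -0.06 to -0.12 with TMM and -0.14 with DESeq2's size factors and then passed the test, and let-7g turned from 0.03 to -0.03 and -0.04 without passing it. The binomial test covers counting error only. EdgeR's exact test was run with a common dispersion estimated from the same 2 replicates (a coefficient of variation of 15.2%). It called 3 of 431 entries and 0 of 15 family entries, and 10 and 0 had an unadjusted p under 0.05. That dispersion takes up the differences under test, so few calls follow from the setup and do not show that the replicates were alike. The lowest unadjusted p of the family was 0.118 (edgeR's exact test).

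**Figure D5:**
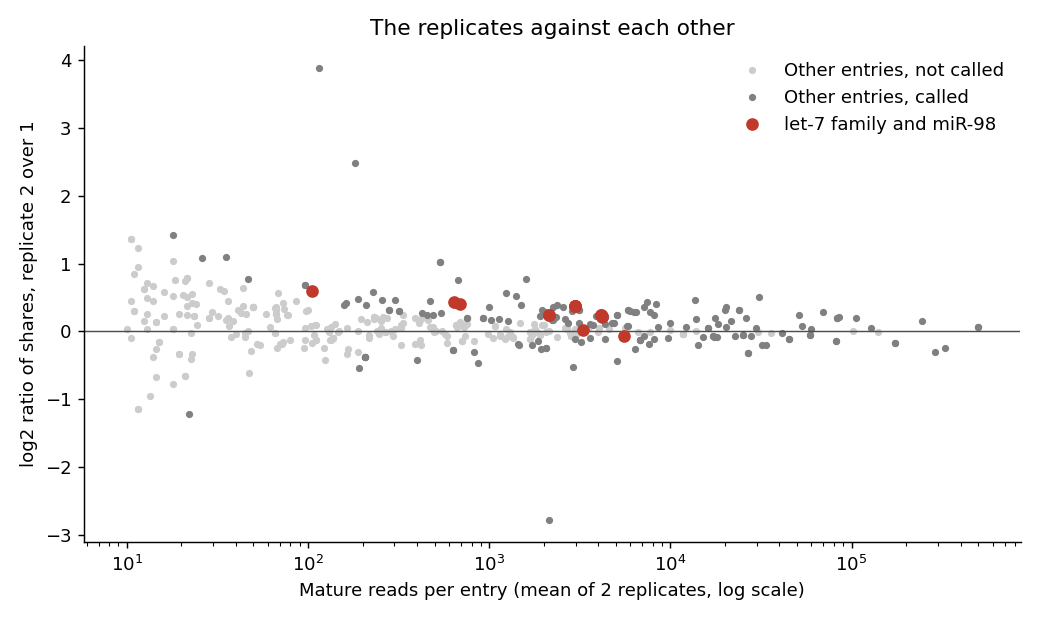
Log2 ratio of shares, replicate 2 over replicate 1, against the mean number of mature reads (log axis) for the 431 entries tested. Red points are the 15 let-7 and miR-98 entries, dark grey points are other entries called by the exact binomial test, and light grey points are entries not called. The family lies between -0.06 and 0.60, with 14 of 15 entries above 0, against 62.2% of all 431 entries. Some family entries repeat 1 sequence, and with each sequence once 8 of 9 were above 0, against 63.7% of all sequences.

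As a check of the labelled tissue, marker lists were summed. The heart muscle list (miR-1a, miR-133a, miR-208a, miR-208b, miR-499) held 15.6% and 16.3% of mature reads, the endothelial miR-126a 3.95% and 3.94%, and the smooth muscle list (miR-143, miR-145a) 10.8% and 9.36%. Lists of other tissues were lower, with 0.154% and 0.187% for red blood cells, 0.0575% and 0.0761% for liver, 0.00702% and 0.00580% for neural cells and 0.00754% and 0.00717% for white blood cells, whose miR-223 was not listed. The heart muscle, red blood cell and liver lists had the higher share in replicate 2, as the family did. Their part in the family's share was not tested. In the heart muscle list only miR-1a rose, from 13.6% to 14.4%. MiR-133a went from 1.68% to 1.63%, miR-208b from 0.0519% to 0.0452% and miR-499 from 0.228% to 0.202%. MiR-208a had 860 reads in replicate 1 and was not listed in replicate 2. Within the red blood cell list, miR-486a went from 0.151% to 0.182%, miR-451a had 128 and 127 reads, and miR-144 was listed in replicate 2 only.

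The miRNAs of pluripotent cells, the miR-290 and miR-302 groups, were set beside the family because both are known to change in opposite directions as embryonic cells differentiate. Of the 12 in the list, 11 were listed, miR-302a was not, and miR-290a-3p stood at 0 reads. Together they made up 0.684% of mature reads in replicate 1 and 0.673% in replicate 2, so the let-7 family was 0.92 times the list in replicate 1 and 1.05 times in replicate 2. The difference between the family and the list thus had no fixed direction. MiR-302b-3p alone, with 9949 and 9844 reads, and miR-302d-3p, with 8603 and 7741, were each above let-7i in each replicate. MiR-293-3p had 2173 and 2119 reads, between let-7a and let-7b in both replicates.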

How the data were processed

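Total RNA of the hearts was extracted with TRIZOL, and TruSeq small RNA libraries were read on an Illumina HiSeq. The authors ran miRDeep2 on cleaned reads of each replicate against mm9 and deposited raw counts of mature, loop and star reads per precursor, with the miRDeep2 score (rounded log-odds). Versions of miRDeep2 and miRBase, trimming and mismatch settings are not given in the sources used here. Members and lists were chosen with earlier results of these data known. The text names all members, cluster partners, the listed partner and pluripotency miRNAs and the marker lists. All 1091 precursor sequences were identical to NCBIM37 at their positions. Entries were paired between replicates at 50% overlap of both. Hairpins were named by RefSeq (GRCm38.p6), whose coordinates were not used. A simulation with 200 altered entries and counting error alone was used to check the exact binomial test. The test recovered 70.5% of the altered entries, with 0% false calls. This cannot show how the test behaves where replicates differ by more than counting error, as they do here. Python 3.11.15, scipy 1.17.1, R 4.3.3, edgeR 4.0.16 and DESeq2 1.42.0 were used. Alternatives varied counting, read minimums, cluster gap, scaling and replicates.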

Additional observations from a re-analysis of the deposited data

How the results depend on the processing

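No paired analysis was possible because the miRNA libraries form 1 group. With every precursor entry counted, the family share was 0.888% (0.670% with each sequence once), the share of reads with the let-7 seed 0.886% (0.668%) and the opposite-arm share 0.795% (1.43%), since repeated mature reads enter the sums. A cluster gap of 50 kb in place of 10 kb raised the share of family reads in members with a partner of another name from 38.8% to 52.6%, because it adds let-7g through miR-135a, which had 9 mature reads in each replicate. Of the 15 family entries, 13 differed between the replicates, against 7 of 9 with each mature sequence once. With edgeR's common dispersion, 0 of the 15 differed and 3 of all 431 entries (177 with the binomial test). That dispersion was estimated from the same 2 replicates and takes up their differences. Leaving out each replicate in turn gave 0.632% to 0.708% for the family, 0.628% to 0.708% for the seed and 1.42% to 1.44% for the opposite arm. Counting all reads of the precursor moved 2 of 9 member shares, let-7i and let-7g, by more than the SD, and a minimum of 10 mature reads per replicate moved 0 of 9. Of the 8 neighbouring pairs, 5 were apart, and 6 with every entry counted, where the order differs. With n = 2, depth is not the limit for the abundant members, whereas miR-98 and the opposite arms of let-7i and let-7g rest on few reads.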
